A study of Mus musculus with 4 samples.

Results

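The antioxidant genes described here are 39 genes given by name: NRF2 (Nfe2l2), its repressor Keap1, genes that respond to NRF2, and the genes of glutathione, thioredoxin, peroxide and superoxide metabolism. They were found by gene symbol among the 54838 genes listed for each library, and each of the 39 symbols matched a single entry. RNA came from Hepa1-6, a mouse hepatocellular carcinoma line. The 2 libraries of group NC are wild type for Acvr2a, which encodes a type II activin receptor, and the 2 libraries of group KO carry an Acvr2a knockout. No treatment, time or further allele is given in the labels for either group. The design text speaks of knockout subclones without saying how many clones the KO libraries represent, and no label says that the 2 libraries of a group came from separate cultures. The p-values therefore measure the spread between these libraries, which may be technical, and features of a clone cannot be told apart from effects of the knockout.

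NRF2 is a transcription factor that switches on genes for detoxification and for glutathione and thioredoxin metabolism. In unstressed cells KEAP1 holds NRF2 for ubiquitination by a CUL3 ligase, and NRF2 is degraded; electrophiles and oxidants modify KEAP1, so NRF2 accumulates and binds antioxidant response elements beside its partners, the small MAF proteins. NRF2 activity is thus set largely at the protein level, which RNA counts do not measure. Glutathione and thioredoxin are the main thiol reductants of the cell, and they supply electrons to the peroxidases that remove hydrogen peroxide and lipid peroxides. In liver these systems also handle drugs and reactive products of metabolism.

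The antioxidant response element was looked for in the promoters as the core TGACNNNGC on either strand. The promoter sequences are RefSeq's on GRCm38.p6, from 250 bases before to 50 after each start, and 31 of the 39 genes matched an entry. Those that did not match were Hmox1, Gclc, Gsr, Abcc1, Prdx6, Gsta4, Gstt2 and Sod3. The core was present for 8 of the 31 genes (25.8%), against 3781 of 27025 genes (14%) of the whole table, and these 8 were Nfe2l2, Gclm, Txnrd1, Srxn1, Prdx1, Gstm5, Mgst1 and Sod1. The AP-1 type motif TGACTCA, searched on both strands, was present for 5 of 31 (16.1%), namely Prdx1, Srxn1, Osgin1, Gstp1 and Gstm5, against 5.95% of all genes. In Prdx1 both motifs share the same bases. Stretches of 4 genes are shown because they hold a match to the core in genes of 4 different systems described below. Each lies upstream of a RefSeq start and outside annotated exons and is read 5′ to 3′ on the gene's strand. The core or its reverse complement is in capitals.
Prdx1, chr4:116685436-116685504, plus strand: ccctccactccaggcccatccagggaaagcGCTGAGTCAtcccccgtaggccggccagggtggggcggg
Gclm, chr3:122245393-122245461, plus strand: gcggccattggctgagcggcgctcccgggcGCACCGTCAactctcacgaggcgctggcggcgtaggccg
Txnrd1, chr10:82859084-82859152, plus strand: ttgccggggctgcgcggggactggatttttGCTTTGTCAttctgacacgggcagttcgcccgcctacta
Sod1, chr16:90220676-90220744, plus strand: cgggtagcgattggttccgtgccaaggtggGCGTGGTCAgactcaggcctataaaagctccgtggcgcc
The Txnrd1 stretch lies inside the annotated gene (chromosome 10, 82833951 to 82897712), before an internal start. In each of these 4 the core reads on the strand opposite to the gene. A match is a description of the letters, and genes with the core moved in both directions: of the 8, Gstm5, Mgst1 and Srxn1 were higher in KO, Nfe2l2, Gclm and Prdx1 were lower, and Txnrd1 and Sod1 did not pass the test.

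The antioxidant genes did not move as a block between NC and KO. The heme-degrading enzyme gene Hmox1 and several glutathione transferase genes were higher in KO, while Nfe2l2 itself, the mitochondrial peroxiredoxin gene Prdx3 and the glutathione synthesis gene Gclm were lower. Of the 39 genes, 35 had enough counts to be tested, and 24 of these passed an adjusted p of 0.05 (edgeR quasi-likelihood test, Benjamini-Hochberg over all 12510 genes tested), 12 higher and 12 lower in KO. Among all genes tested 37.9% passed, 19.7% higher and 18.2% lower. Highly expressed genes pass more readily: the share was 44.7% among the 3535 genes at or above the median level of the antioxidant genes, where 14 of 18 antioxidant genes passed. The median log2 fold change was -0.15 over the 35 genes and -0.0037 over all genes tested. The median over the 35 genes was -0.088 without NC 1, where that over all genes was 0.0054. On log2(TPM + 1) it was -0.0053, against 0.0596 over all genes. The median of the 35 genes was thus close to 0 on the length-scaled values, but still below that of all genes. Without NC 1 fewer genes passed, among the antioxidant genes as among all genes tested. On the deposited length-scaled values (limma on log2(TPM + 1)) 9 antioxidant genes passed, 7 higher and 2 lower, against 15.1% of all genes in that fit. These 9 were Hmox1, Osgin1, Abcc1, Gsta4, Gstm5, Gstt1, Mgst1, Prdx3 and Mgst3, and the calls of the other 15 genes, Nfe2l2 and Gclm among them, were lost there. With DESeq2, 20 of the 35 genes passed, against 25.7% of all genes tested.

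The CPM (counts scaled to a common library size) of the NC and KO libraries did not overlap for 30 of the 35 tested genes, against 69.4% of all genes tested. A rise of at least 0.5 on the log2 scale past the threshold was seen for 7 of the genes (12.6% of all genes) and such a fall for 4 (7.55% of all genes). Of the 35 tested genes, Hmox1 and Gsta4 changed by 2-fold or more, and the share of all genes past that limit was not counted.

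**Figure D1:**
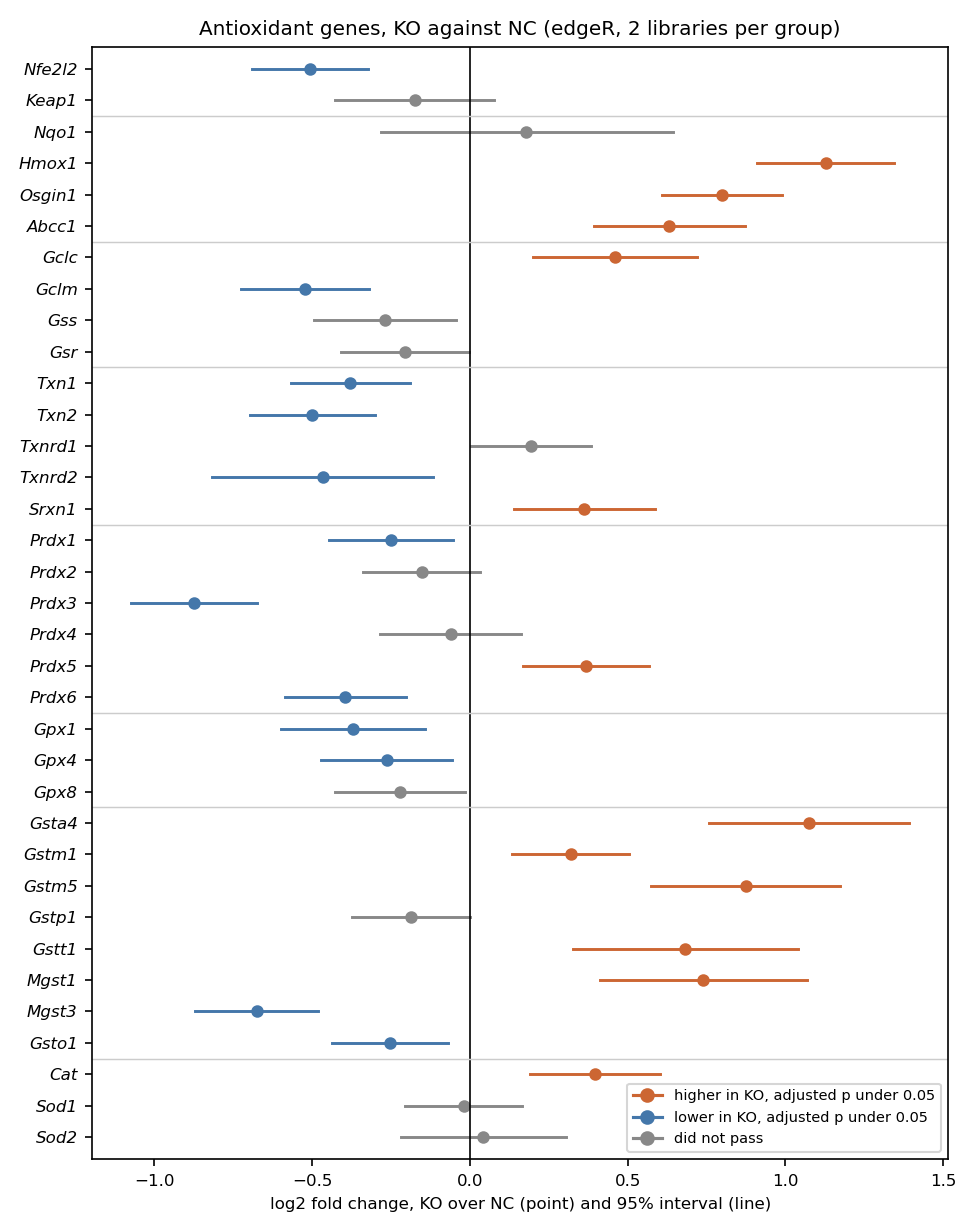
Log2 fold change of KO over NC for each of the 35 tested antioxidant genes (point) with its 95% interval (line) from edgeR's quasi-likelihood fit on 2 libraries per group. Grey rules separate NRF2 and Keap1, responsive genes, glutathione synthesis, thioredoxin, peroxiredoxins, glutathione peroxidases, transferases, and catalase with superoxide dismutases; orange (12 genes) and blue (12 genes) mark rises and falls past an adjusted p of 0.05.

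**Figure D2:**
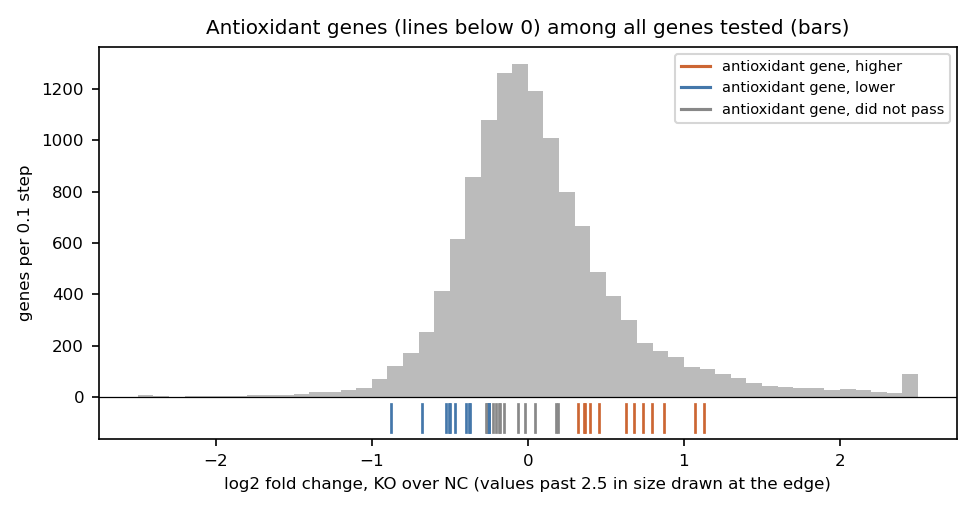
Histogram of the log2 fold change of KO over NC for the 12510 genes tested, in steps of 0.1, with the 35 antioxidant genes as lines below the axis, orange for rises, blue for falls and grey for those that did not pass; values beyond the axis are drawn at its edge. The antioxidant genes lie between -0.87 (Prdx3) and 1.13 (Hmox1), on both sides of 0.

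Nfe2l2, which encodes NRF2, was lower in KO. The gene (ENSMUSG00000015839.6) lies on chromosome 2 at 75675513 to 75704641, minus strand (GRCm38). Its level was 224 and 219 CPM in the NC libraries against 157 and 154 CPM in the KO libraries. Both KO libraries thus lay well below both NC libraries, and the libraries of a group were close to each other. The log2 fold change was -0.51 (SE 0.090, 95% interval -0.69 to -0.32, edgeR adjusted p = 7.12e-05). Keap1 (chromosome 9, 21229730 to 21239361, minus strand), the repressor, was at 32.6 and 31.1 CPM in NC and at 31.3 and 25.02 CPM in KO, so the groups overlapped. Its log2 fold change of -0.18 (95% interval -0.43 to 0.076) did not pass (edgeR adjusted p = 0.271). The value turned on the KO library kept: it was -0.35 without KO 1 and -0.023 without KO 2, and passed in neither. The estimated counts of Keap1 are not whole numbers, so some of its reads are shared with other genes. Exons of Keap1 overlap those of Gm16754 on the other strand, and whether the counting used strand is not given in the sources used here.

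Of the 4 NRF2-responsive genes of detoxification, feedback and efflux, Hmox1, Osgin1 and Abcc1 were higher in KO and Nqo1 did not pass. Over all genes tested 19.7% were higher. Other known targets of NRF2, described with their own systems and in the wider list, moved in both directions. Hmox1 encodes heme oxygenase 1, which breaks down heme to biliverdin, iron and carbon monoxide, and it is also repressed by BACH1. Hmox1 (chromosome 8, 75093621 to 75100589) was at 36.6 and 36.9 CPM in NC 1 and NC 2, and at 72.6 and 88.0 CPM in KO 1 and KO 2. The KO libraries differed from each other by far more than the NC libraries did, yet the lower of them was close to 2-fold above NC. The log2 fold change was 1.13 (SE 0.11, edgeR adjusted p = 4.49e-09).

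Osgin1, an oxidative stress-induced growth inhibitor gene (chromosome 8, 119434124 to 119446256), was at 115 and 120.4 CPM in NC and at 195 and 214 CPM in KO. Its groups were separated by a wide gap, with a log2 fold change of 0.80 (SE 0.093, edgeR adjusted p = 1.72e-07). Abcc1 encodes MRP1, an export pump for glutathione conjugates (chromosome 16, 14361558 to 14475737). It was at 29.8 and 39.4 CPM in NC and at 50.6 and 57.2 CPM in KO, which was a log2 fold change of 0.63 (SE 0.12, edgeR adjusted p = 0.000115). The 2 NC libraries of Abcc1 differed by nearly as much as the gap between the groups, and leaving out NC 1 gave 0.45 while leaving out NC 2 gave 0.85. Nqo1, a quinone reductase gene often used as a readout of NRF2, was low: 53 and 89 counts in NC against 76 and 93 in KO. Its groups overlapped (log2 fold change 0.18, 95% interval -0.28 to 0.64, edgeR adjusted p = 0.563), and the interval includes rises of the size seen for Abcc1.

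**Figure D3:**
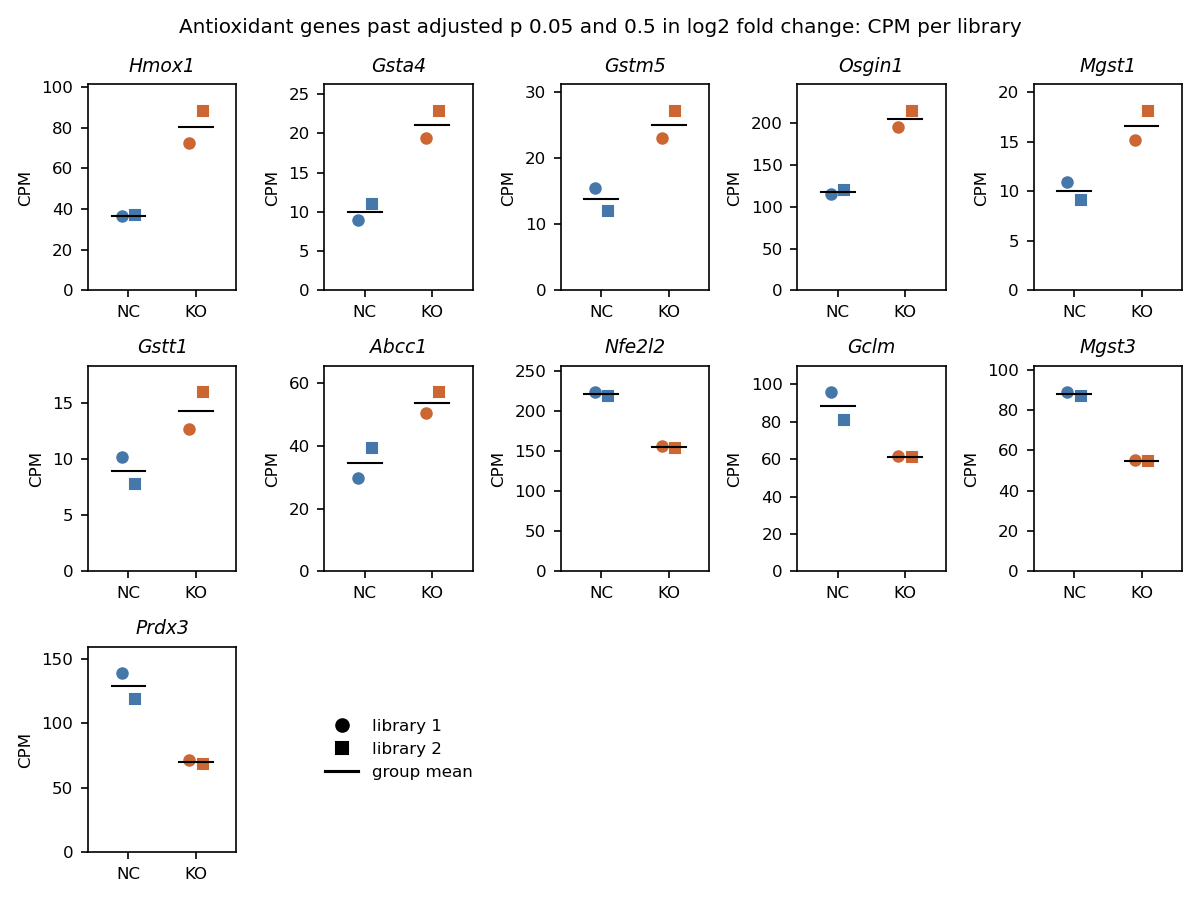
CPM (y axis, from 0) in each library of NC (blue) and KO (orange) for the 11 antioxidant genes past an adjusted p of 0.05 with a log2 fold change of at least 0.5 in size; circles are library 1, squares library 2 and lines group means (n = 2). From Hmox1 to Abcc1 both KO libraries lie above both NC libraries, and from Nfe2l2 to Prdx3 both lie below.

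The genes of glutathione synthesis moved in opposite directions. Glutamate-cysteine ligase, the rate-limiting enzyme, is built from a catalytic subunit (Gclc) and a modifier subunit (Gclm) that raises its activity. Gclm (chromosome 3, 122245557 to 122270732) was at 95.6 and 80.7 CPM in NC and at 61.6 and 60.9 CPM in KO, and fell by 0.52 on the log2 scale (SE 0.10, edgeR adjusted p = 0.000164). Gclc (chromosome 9, 77754535 to 77794485) was at 21.4 and 24.1 CPM in NC and at 28.5 and 34.2 CPM in KO. It rose by 0.46 (SE 0.13, edgeR adjusted p = 0.00527). In neither gene did the groups overlap, and the 95% intervals of the 2 changes, -0.73 to -0.32 for Gclm and 0.20 to 0.72 for Gclc, lie on opposite sides of 0. Per length, the ratio of Gclm to Gclc in TPM (the deposited level scaled by transcript length) was 16.9 and 11.9 in the NC libraries against 7.83 and 6.18 in the KO libraries, a pair chosen after its values were seen. The modifier subunit remained the more abundant transcript in all 4 libraries. The call for Gclc was lost without NC 1 and without KO 2, and the estimated counts of Gclm are not whole numbers, so some of its reads are shared with other genes; its exons overlap Gm6061 on the same strand and Gm17494 on the other.

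Gss, which encodes the second enzyme of the pathway, was at 37.6 and 37.0 CPM in NC and at 30.9 in both KO libraries. Its log2 fold change of -0.27 missed the threshold (edgeR adjusted p = 0.0529), and it passed with the replicate number as a block (adjusted p = 0.0467). Its exons overlap Acss2, Gssos1 and Gssos2 on the other strand. Gsr, the reductase that regenerates glutathione, had a log2 fold change of -0.21 (edgeR adjusted p = 0.104), with both KO libraries below both NC libraries.

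In the thioredoxin system 3 of 5 genes were lower and 1 was higher, against 18.2% lower and 19.7% higher over all genes tested. Txn1, the cytosolic thioredoxin gene, was at 329 and 292 CPM in NC and at 237 and 239.9 CPM in KO (log2 fold change -0.38, edgeR adjusted p = 0.00181). Txn2 encodes the mitochondrial thioredoxin and was at 101 and 94.5 CPM in NC against 64.5 and 73.4 CPM in KO. Its log2 fold change of -0.50 (SE 0.097, edgeR adjusted p = 0.000195) was near that of Txn1, and for both genes the KO libraries lay below NC.

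The thioredoxin reductases, selenoproteins that pass electrons from NADPH to thioredoxin, differed in level. Txnrd1, the cytosolic enzyme, was at 133 and 146 CPM in NC and at 158 and 163 CPM in KO, and its log2 fold change of 0.19 (95% interval 0.0041 to 0.38) did not pass after adjustment over all genes. Txnrd2, the mitochondrial enzyme, was low, at 144 and 157 counts in NC against 122 and 109 in KO. Its log2 fold change was -0.47 (SE 0.17, edgeR adjusted p = 0.0316). On the TPM scale Txnrd2 was at 10.3 and 8.43 in NC and at 9.37 and 8.85 in KO, so the groups overlapped there and the log2(TPM + 1) difference was not called. The mean transcript length that RSEM assigned to Txnrd2 was 1543 and 1745 bases in NC and 1389 and 1253 bases in KO. Srxn1, sulfiredoxin, which repairs over-oxidised peroxiredoxins and is a known NRF2 target, rose from 31.8 and 30.3 CPM to 39.1 and 40.8 CPM (log2 fold change 0.36, edgeR adjusted p = 0.00965). The calls for Srxn1 and Txnrd2 were lost with DESeq2, that for Srxn1 also without NC 2 or KO 2, that for Txnrd2 also without NC 1 or KO 2, and that for Txn1 without NC 1.

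Peroxiredoxins are thiol peroxidases that remove hydrogen peroxide, most of them at the expense of thioredoxin. Of the 6 genes 3 were lower and 1 was higher in KO, against 18.2% lower and 19.7% higher over all genes tested. Prdx3, the mitochondrial member that is reduced by thioredoxin 2, had the largest fall of the 35 genes. It lies on chromosome 19 at 60864051 to 60874556, minus strand, and was at 139 and 119 CPM in NC and at 71.6 and 68.6 CPM in KO. Both KO libraries lay far below both NC libraries, and the log2 fold change was -0.87 (SE 0.097, 95% interval -1.07 to -0.68, edgeR adjusted p = 8.61e-08).

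Prdx5, another peroxiredoxin that is found in mitochondria, and also in peroxisomes and cytosol, went the other way. It was at 78.8 and 67.3 CPM in NC and at 93.9 and 94.3 CPM in KO (log2 fold change 0.37, SE 0.097, edgeR adjusted p = 0.00387), a call lost without NC 2. In TPM the ratio of Prdx5 to Prdx3, a pair chosen after its values were seen, was 0.957 and 0.986 in NC and 2.14 and 2.33 in KO. The 2 transcripts were thus near equal per length in NC, whereas Prdx5 exceeded Prdx3 in both KO libraries. Exons of Prdx5 overlap Trmt112 on the other strand, and its estimated counts are not whole numbers, so some of its reads are shared with other genes.

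Prdx6, which also reduces phospholipid peroxides, was at 753 and 693 CPM in NC and at 539 and 561 CPM in KO (log2 fold change -0.39, edgeR adjusted p = 0.00146). Prdx1, the abundant cytosolic member, was at 739 and 650.0 CPM in NC and at 561 and 607 CPM in KO. Its fall was smaller (log2 fold change -0.25, edgeR adjusted p = 0.0410), and its call was lost without NC 1 (-0.16), without KO 1 and when scaling by library totals only. Prdx2 (-0.15) and Prdx4, the secretory pathway member (-0.061), did not pass; exons of Prdx2 overlap Junb and Rnaseh2a on the other strand.

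Of the glutathione peroxidases, 2 of 3 tested genes were lower in KO and none was higher. Over all genes tested 18.2% were lower and 19.7% higher. Gpx1, the cytosolic enzyme for hydrogen peroxide, was at 47.5 and 49.5 CPM in NC and at 41.7 and 33.3 CPM in KO (log2 fold change -0.37, edgeR adjusted p = 0.00971). Gpx4 reduces lipid peroxides in membranes and guards against ferroptosis; it was at 269 and 211 CPM in NC and at 205 and 194 CPM in KO. NC 1 stood apart for Gpx4: the log2 fold change was -0.26 with all libraries (edgeR adjusted p = 0.0406), -0.088 without NC 1 and -0.43 without NC 2. Some reads of Gpx4 are shared with other genes, as its estimated counts are not whole numbers. Gpx8, an endoplasmic reticulum member without selenocysteine, had a log2 fold change of -0.22 that did not pass (edgeR adjusted p = 0.0828). The calls for Gpx1 and Gpx4 were lost with DESeq2 and without KO 2, where the value for Gpx1 was -0.22, and that for Gpx4 also with scaling by library totals only. Gpx3, the secreted plasma form, had 0 counts in NC against 2 and 3 in KO, and Gpx7 had 0 in all 4. These 2 genes were not tested, and 0 counts allow up to 3 per library.

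The annotation marks 5 of the 39 genes as encoding selenocysteine, the residue at the active site of these enzymes: Gpx1, Gpx3, Gpx4, Txnrd1 and Txnrd2. Of the 4 that were tested, Gpx1, Gpx4 and Txnrd2 were lower in KO, against 18.2% of all genes tested, and Txnrd1 did not pass. All 3 of these calls were lost with DESeq2, without KO 2 and on log2(TPM + 1).

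Glutathione transferases join glutathione to electrophiles. They are the largest of these systems and held the most rises: 5 of 8 tested genes were higher and 2 were lower in KO. The shares over all genes tested were 19.7% higher and 18.2% lower. Gsta4, which clears 4-hydroxynonenal, a product of lipid peroxidation, lies on chromosome 9 at 78182774 to 78209349. It was at 8.97 and 10.98 CPM in NC and at 19.4 and 22.8 CPM in KO, a log2 fold change of 1.07 (SE 0.15, edgeR adjusted p = 4.08e-06). Both KO libraries were thus well above both NC libraries.

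The mu-class genes Gstm5 (chromosome 3, 107895821 to 107898686) and Gstm1 (chromosome 3, 108012255 to 108017973) sit in one cluster. Gstm5 was at 15.4 and 12.1 CPM in NC and at 23.0 and 27.0 CPM in KO (log2 fold change 0.87, SE 0.15, edgeR adjusted p = 3.35e-05). Gstm1 had far more counts, at 135 and 138 CPM, and reached 169 and 172 CPM in KO (0.32, SE 0.091, edgeR adjusted p = 0.00646), a call lost without NC 1. The estimated counts of both genes were whole in every library, so no division of reads with related genes was visible in them. Exons of Gstm5 overlap 4933431E20Rik on the other strand.

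Gstt1, a theta-class gene (chromosome 10, 75783813 to 75798584), was at 10.2 and 7.80 CPM in NC and at 12.7 and 16.0 CPM in KO. The log2 fold change was 0.68 (SE 0.17, edgeR adjusted p = 0.00276), with the groups apart by less than the spread of the KO pair, and the call was lost without NC 2 and without KO 2. Mgst1 encodes a microsomal transferase with peroxidase activity (chromosome 6, 138140316 to 138156755). It rose from 10.9 and 9.10 CPM to 15.2 and 18.1 CPM, by 0.74 on the log2 scale (SE 0.16, edgeR adjusted p = 0.000599).

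Mgst3, a related microsomal gene (chromosome 1, 167371966 to 167393841), moved the opposite way. It was at 88.8 and 86.8 CPM in NC and at 55.2 and 54.7 CPM in KO, with replicates almost equal, and the log2 fold change was -0.68 (SE 0.095, edgeR adjusted p = 3.04e-06). Gsto1, the omega-class gene, had a log2 fold change of -0.25 (edgeR adjusted p = 0.0276), and this call was lost without NC 1, without NC 2, without KO 1 and when scaling by library totals only. Gstp1, the pi-class gene and the most abundant of the 39 transcripts, had 606 and 619 CPM in NC and 544 and 531 CPM in KO. Its log2 fold change of -0.19 did not pass (95% interval -0.37 to 0.00015, edgeR adjusted p = 0.108), and its estimated counts are not whole numbers, so that some reads are shared with other genes. Gstt2 had 2 counts in each library and was not tested.

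Catalase removes hydrogen peroxide in peroxisomes, and superoxide dismutases produce that peroxide from superoxide. Cat was at 48.2 and 53.7 CPM in NC and at 63.6 and 70.6 CPM in KO (log2 fold change 0.40, SE 0.10, edgeR adjusted p = 0.00278), a call lost without NC 1. Sod1, the copper-zinc enzyme of the cytosol, was at 208 and 199 CPM in NC and at 208 and 194 CPM in KO. Its log2 fold change was -0.020 with a 95% interval from -0.21 to 0.17. Sod2, the manganese enzyme of mitochondria, was at 29.2 and 23.1 CPM in NC and at 26.9 and 26.7 CPM in KO (0.043, 95% interval -0.22 to 0.31). For both dismutases the groups overlapped. Sod3, the extracellular enzyme, had 1 count in NC 1 and 0 in the other libraries.

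Levels between genes were compared on the deposited TPM values, which are scaled by length. Gstp1 was highest in every library, between 1144 and 1347 TPM. Prdx6, Prdx1, Sod1 and Gpx4 followed, with means over the libraries from 619 TPM for both peroxiredoxins to 428 TPM for Gpx4. Prdx6 and Prdx1 did not differ in level beyond the spread of the libraries. At the lower end stood Gclc, Txnrd2 and Nqo1, each under 12 TPM in every library. The largest rises, Hmox1 and Gsta4, stood at ranks 21 and 26 by mean TPM, and Osgin1, which also rose, at rank 11. Hmox1 went from 29.3 and 31.1 TPM in NC to 63.5 and 73.6 TPM in KO. Of the abundant peroxiredoxins, Prdx6 and Prdx1 fell, Prdx2 did not pass and Prdx5 rose.

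Summed per system, the 6 peroxiredoxins held 1948 and 1798 TPM in NC and 1529 and 1567 TPM in KO. The 5 thioredoxin genes held 607 and 583 TPM in NC and 503 and 498 TPM in KO, and the glutathione transferases 1970 and 2108 TPM against 1979 and 1925 TPM. The 2 sums for peroxiredoxins and thioredoxin genes were lower in both KO libraries, whereas those for the transferases overlapped; Gstp1 held more TPM than the other transferases together in every library. These sums are given as descriptions and were not tested.

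**Figure D4:**
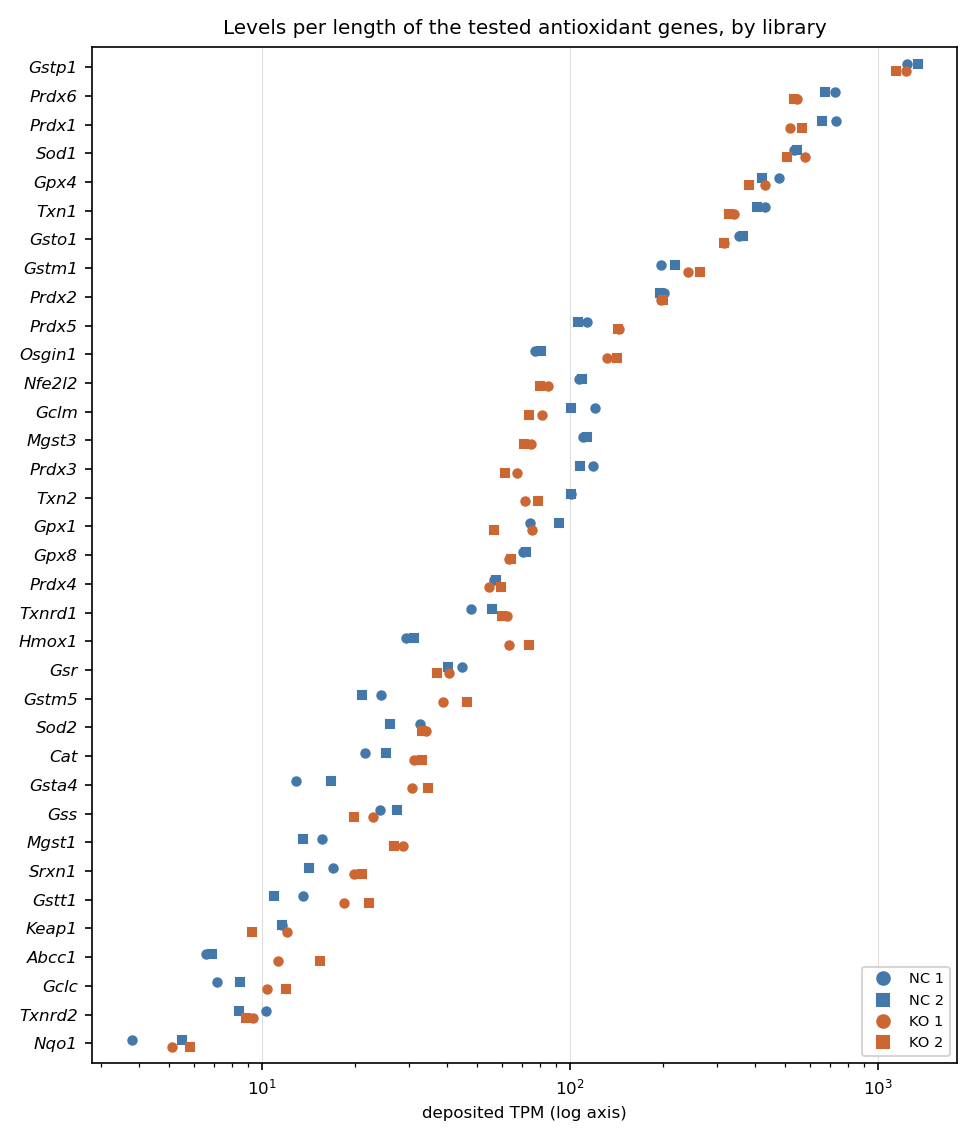
Deposited TPM (log axis) of each of the 35 tested antioxidant genes in NC 1, NC 2, KO 1 and KO 2, ordered by the mean over the 4 libraries; blue is NC, orange KO, circles library 1 and squares library 2. Levels span from 3.77 TPM for Nqo1 in NC 1 to 1347 TPM for Gstp1 in NC 2, and the orange points lie clearly to the right for Hmox1, Gsta4, Osgin1 and Mgst1 and to the left for Prdx3, Mgst3 and Nfe2l2.

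A wider list of 104 other genes of these pathways, on 105 gene entries, was counted in the same fit. Of the 98 entries tested 44 passed, 22 higher and 22 lower in KO, or 44.9% against 37.9% of all genes tested. Fewer of them were called lower without NC 1, where fewer of all genes passed too. Among 11 other regulators of NRF2, 2 were higher and 2 lower (36.4% called, against 37.9% of all genes tested). Bach1, the repressor that competes with NRF2 at Hmox1, rose from 9.59 and 11.8 CPM to 21.4 and 18.95 CPM (log2 fold change 0.91, edgeR adjusted p = 3.31e-05). Hmox1 and the gene of its repressor were therefore both higher in KO. Sqstm1, whose product p62 binds KEAP1, had a log2 fold change of 0.28, while Mafg, a small MAF partner of NRF2 whose exons overlap Sirt7 (-0.46), and Rbx1, a subunit of the CUL3 ligase (-0.50), were lower.

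Of 28 tested other NRF2-responsive genes, 5 were higher and 7 lower (42.9% called, against 37.9% of all genes tested). Ephx1, microsomal epoxide hydrolase (0.83), and Cbs, which feeds homocysteine towards cysteine (1.83, from 1.66 ± 0.11 to 5.92 ± 0.0015 CPM, SD, n = 2), were higher. Fth1, the ferritin heavy chain (-0.49), and Slc7a11, the cystine importer that supplies cysteine for glutathione (-0.40), were lower. Genes of the pentose phosphate pathway that can respond to NRF2, named after their values were seen, did not rise: Tkt (-0.26) and Taldo1 (-0.32) fell, and G6pdx (0.13) and Pgd (-0.031) did not pass.

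Among 41 tested entries of other glutathione, glutaredoxin and thioredoxin genes, 14 were higher and 6 lower. That was 48.8% called, against 37.9% of all genes tested. Txnip, which encodes the thioredoxin-interacting protein that binds and inhibits thioredoxin, rose from 155 and 165 CPM to 778 and 994 CPM (log2 fold change 2.47, SE 0.11, edgeR adjusted p = 3.07e-15), more than any of the 39 antioxidant genes; its exons overlap Gm15441 on the other strand. Gstm6, a neighbour of Gstm1 and Gstm5, rose by 1.55 on the log2 scale, and Mgst2 fell by 1.17. A second entry named Nnt (ENSMUSG00000116207.1) had 0 counts in NC and about 68 and 22 in KO; it shares its exons with the main Nnt entry (447 and 666 counts in NC, 566 and 519 in KO, not called), so the split of reads between them is uncertain.

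Of 18 genes for selenoprotein synthesis and other selenoproteins, 7 were lower and 1 was higher. That was 44.4% called, against 37.9% of all genes tested (18.2% lower and 19.7% higher). Selenop, the plasma selenium carrier made by liver, fell from 395 and 380.3 CPM to 259 and 279.99 CPM (-0.53, edgeR adjusted p = 5.47e-05). Sephs2 (-0.47), which makes the selenium donor for selenocysteine, and its relative Sephs1 (-0.43) were also lower, and Selenom (0.44) was higher. Exons of Selenop overlap Ccdc152 and those of Sephs2 overlap Gm44729, both on the other strand.

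Library totals lay between 11597923 and 13910582 counts, and log2 CPM correlated across the tested genes at 0.989 within each group and between 0.963 and 0.972 across groups. Acvr2a itself was counted 81, 108, 75 and 97 times in NC 1, NC 2, KO 1 and KO 2 (log2 fold change -0.21, edgeR adjusted p = 0.433), so its RNA total did not separate the groups, and group names follow the labels. Of 10 hepatocyte markers 8 were tested; Alb and Trf were higher in KO (log2 fold changes 0.41 and 0.54), Afp and Hnf4a were lower (-1.21 and -0.995), and Krt8 and Krt18 were high without a call. Apob, at 88.7 and 88.5 CPM in NC and at 76.4 and 84.5 CPM in KO, was not called. Apoa1 lay between 1.26 and 2.96 CPM, and Ttr and Serpina1a were at or near 0. Summed leukocyte markers lay between 2.38 and 4.40 CPM, with 4 of 10 at 0, and endothelial markers between 0.304 and 1.06 CPM, with 3 of 5 at 0. Of the 6 stellate or fibroblast markers Dcn was high in every library (1473 CPM on average in NC and 1644 in KO, not called), Lrat was at 0, and Col1a1 rose from 0.444 to 2.96 CPM. Pdgfrb, Col1a2 and Acta2 were each at or below 0.152 CPM in every library and were not tested. Cholangiocyte markers summed to 463 and 449.8 CPM in NC and 511 and 504.5 CPM in KO, with 3 of 5 higher and 1 lower. The part of these marker shifts in the values above was not tested.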

How the data were processed

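RNA of 4 Hepa1-6 libraries (2 NC, 2 KO) was analysed from 1 deposited file per library. Per the file headers, the deposited expected counts are RSEM's estimated counts per gene, not normalised, and the deposited TPM values are the authors' length-scaled levels. The deposited length column gives the mean transcript length per gene. The submitters' processing notes name FastQC, STAR, RSEM and DESeq2 and the builds GRCm38 and mm10; versions, annotation release and strand setting are not given in the sources used here. RSEM divides reads that fit several genes, so similar genes can exchange counts. Per the labels' protocols, RNA was extracted with TRIzol and made into directional libraries.

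Expected counts were rounded. The 12510 genes kept by filterByExpr were scaled by TMM (factors 0.981 to 1.02) and compared with edgeR 4.0.16 (R 4.3.3), glmQLFit and glmQLFTest, group as the only term, two-sided, with Benjamini-Hochberg adjustment over all genes and a threshold of 0.05. CPM are counts over the scaled library size. Log2 fold changes are KO over NC; their intervals (95%) cover counting error and the spread of these libraries, and PCR copies were not separated. Among the alternatives, limma 3.58.1 was run on TPM on the log2(value + pseudocount) scale. DESeq2 1.42.0 was run on the rounded counts, without a pseudocount. No pair of replicates was a repeat of one library (chi-square per degree of freedom 7.09 and 10.0). Positions and exon overlaps come from GENCODE M21 (GRCm38), in which all 39 genes matched.

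Every antioxidant gene is accounted for; those past 0.05 and 0.5 in size, with Nfe2l2 and Keap1, are given per library, and of the wider list the 4 lowest p per class. Genes and lists were chosen with earlier results of these data known. Counts were also simulated from these libraries (12321 genes tested). Of 66 genes changed by 0.5 on the log2 scale, 47.0% were called with the right sign. The share was 83.1% of 65 genes changed by 1 and 98.5% of 66 changed by 2, and 12 of 12124 unchanged genes were called. Far fewer genes were changed in the simulation than passed in the data, so its adjusted threshold was stricter. These shares therefore do not give the shares that would be called in the data.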

Additional observations from a re-analysis of the deposited data

How the results depend on the processing

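Over 14 alternatives, 397 of the 490 values of single antioxidant genes kept their direction and side of the threshold, 83 lost their call, 1 gained one and 9 changed sign, all 9 among genes that had not passed. The changes of sign were Sod1 at 0.014 with library totals only, 0.0063 without NC 1 and 0.028 without KO 2; Prdx2 at 0.00099 in the 3 TPM fits (0.000986 with pseudocount 1 and 0.000991 with 0.1); Nqo1 at -0.029 without NC 1; Sod2 at -0.12 without NC 2; and Prdx4 at 0.032 without KO 1. Leaving out each library in turn gave -0.071 to 0.028 for Sod1, -0.029 to 0.44 for Nqo1, -0.12 to 0.21 for Sod2 and -0.16 to 0.032 for Prdx4. Hmox1, Gsta4, Gstm5, Osgin1, Mgst1, Abcc1 and Prdx3 kept their calls in every alternative except unfiltered TPM.

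The largest changes came from limma on TPM, and their cause was not tested. With pseudocount 1 and the filter, 1888 genes passed in all (1391 higher, 497 lower) in place of 4741 (2459 and 2282). Of the antioxidant genes 9 passed there (7 higher, 2 lower), with a median of -0.0053 against 0.0596 over all genes. Of the wider list 22 passed, 4 of them lower. With pseudocount 0.1, 1096 genes passed (899 higher, 197 lower), 7 antioxidant genes (6 higher, 1 lower; median -0.0054) and 10 of the wider list (8 higher, 2 lower). The share of rises among all calls was 73.7% and 82% in these fits. Without a filter on low TPM, 0 genes passed in all, 0 antioxidant genes and 0 of the wider list, in either direction; there 4725 genes in all and 20 antioxidant genes had an unadjusted p under 0.05, and the median was -0.0030. DESeq2 called 3217 genes (25.7%) and 20 antioxidant genes, all among the 24. The median was -0.12 with library totals only and -0.13 with no filter on low counts.

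Leaving out 1 library gave 16 to 22 antioxidant genes, 9 to 12 higher and 7 to 11 lower, and medians from -0.17 to -0.088; 3507 to 4488 genes passed in all, and 32 to 44 of the wider list, 14 to 22 of these lower. Where that leaves 1 library in a group, it is assumed to vary like the others. With the replicate block 25 antioxidant genes and 5006 genes in all passed, the added one being Gss; it changed no other call among the 35. Same-numbered libraries did not deviate together (correlation -0.012 across genes). The labels do not say that the numbers pair libraries, and this correlation cannot exclude it. Depth limits Nqo1, Txnrd2, Gsta4, Gstt1, Mgst1 and Gstm5, with few counts, and leaves Gpx3, Gpx7, Gstt2 and Sod3 without a test.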

Other observations

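RSEM's mean transcript length per gene, which moves when the mix of transcript lengths assigned to a gene moves, did not overlap between NC and KO for 8 of the 35 tested antioxidant genes (22.9%), against 31.4% of all genes tested. Group means were also at least 10% apart for 2 of them (11.2% of all genes), Txnrd2 and Prdx1, and these were described after their values were seen. The length of Prdx1 was 1314 and 1344 bases in NC and 1496 and 1429 bases in KO, longer in both KO libraries, and that of Txnrd2 was shorter in both. Nfe2l2 was assigned 2471 and 2474 bases in NC and 2390 and 2377 bases in KO, a smaller shift with close replicates. The genes just outside the limit of 0.5 used for values in every library were Txn2 (-0.50, just under 0.5 in size), Txnrd2 (-0.47) and Gclc (0.46), and those just inside were Nfe2l2 (-0.51) and Gclm (-0.52).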
